A study of Mus musculus with 12 samples.

Results

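The comparison described here set fibroblasts in which the 4 reprogramming factors had been switched on for 72 h beside the same cells left uninduced, both without added vitamin B12. It used 6 of the 12 samples of the series, chosen by their labels: 3 libraries of the group doxy-OSKM and 3 of the group MEF. Mouse embryonic fibroblasts (MEFs) were of the i4F background, in which doxycycline drives a cassette of Oct4, Sox2, Klf4 and Myc (OSKM), and they came from E13.5 embryos, C57BL/6 per the labels. Each of clones 1, 2 and 3 was the culture of a separate embryo and gave 1 library to each group. The doxy-OSKM cells received doxycycline at 1 µg/ml per the labels and the MEF cells received none, so the drug and the factors cannot be told apart. The methods of the study give the dose in mg/ml instead, and the difference could not be settled here. All cells carried the cassette and were seeded at 300000 cells per well in serum-replacement medium with LIF, a medium for pluripotent cells. The other 6 samples were the same clones and states with 2 µM B12 (doxy-OSKM + B12 and MEF + B12), and they entered the fits but are described only beside the results they touch.

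Oct4 (gene Pou5f1), Sox2, Klf4 and Myc together can return a fibroblast to a pluripotent state over weeks. In the opening days, cells are known to lower genes of the fibroblast state, such as those for collagens and contractile proteins, and to raise genes of epithelial cells, a shift called the mesenchymal-to-epithelial transition. Endogenous pluripotency genes such as Nanog and Zfp42 are known to come on late and in few cells. A bulk library averages all cells of a well, so fewer cells of a type and less RNA per cell cannot be told apart.

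Values are CPM, the counts of a gene relative to the TMM-scaled total of its library, and differences are on the log2 scale, as doxy-OSKM minus MEF. Library totals ranged from 56971244 to 79236795 counted pairs over the 12 libraries. A gene is said to have risen or fallen in a clone where edgeR gave an adjusted p under 0.05 for that clone, in a fit with a separate response for each clone. That fit used the B12 libraries of the clone to estimate the spread, so its p-values compare cultures of 1 embryo and do not cover the spread between embryos. Differences of single genes come from the fits, which also draw on the libraries with B12, unless they are said to be of pairs. The titles of the clone 1 libraries name a later year than the others, so clone and year cannot be told apart. The doxy-OSKM library of clone 1 stood apart from the other 3 libraries of its clone in pseudogenes, where the log2 deviation had an SD of 0.556 over 1519 pseudogenes, against 0.114 to 0.247 in the other 11 libraries. Over 11564 coding genes its SD was 0.26, against 0.139 to 0.26 in the others, and calls of named genes lost without it are given below. As a check of the cell type, the summed CPM of 23 fibroblast genes was 132300 to 160600 in MEF and 102900 to 133800 in doxy-OSKM.

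The factors themselves were induced unevenly. Pou5f1 had 0.468, 0.379 and 0 CPM in MEF and 19.3, 18.5 and 2.86 CPM in doxy-OSKM in clones 1, 2 and 3, and Sox2 had 0.658, 0.522 and 0.378 CPM in MEF and 15.5, 13.3 and 2.33 CPM in doxy-OSKM. Both were above every MEF library in every clone, yet clone 3 reached a far lower level than clones 1 and 2. Myc had 22.5, 16.4 and 18.6 CPM in MEF and 53.4, 44 and 20.04 CPM in doxy-OSKM, and it rose in clones 1 and 2 by 1.24 ± 0.07 and 1.38 ± 0.08 (SE). In clone 3 Myc differed by only 0.17 (adjusted p = 1). Klf4 did not follow the others, with 139, 143 and 124 CPM in MEF and 121, 122 and 119 CPM in doxy-OSKM and a log2 difference of -0.17, -0.17 and -0.14 in clones 1, 2 and 3, none of them past the test, although all 3 doxy-OSKM values lay below every MEF library. Counts per gene join transcripts of the cassette with those of the endogenous gene.

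**Figure D1:**
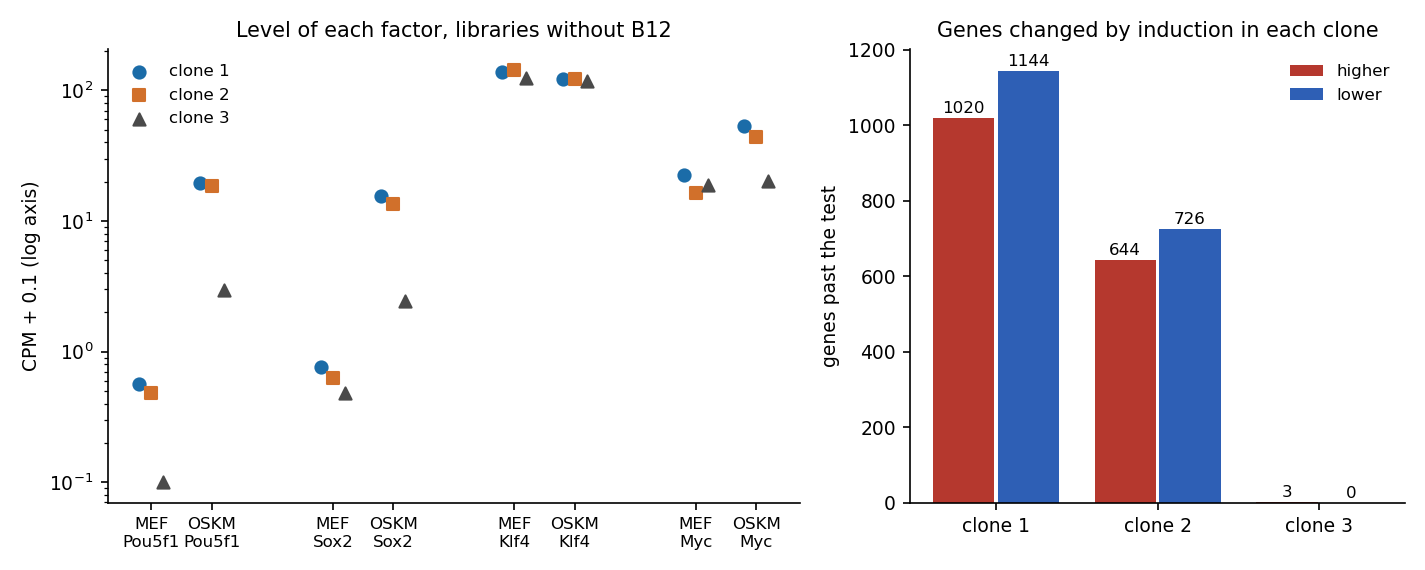
Left, CPM plus 0.1 on a log axis for the 4 factor genes in the 3 MEF and 3 doxy-OSKM (OSKM) libraries without B12, 1 point per library. Right, number of genes past the test in each clone. Pou5f1 and Sox2 reach 13.3 to 19.3 CPM in clones 1 and 2 but 2.33 to 2.86 CPM in clone 3, where 3 genes were higher and 0 lower.

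Averaged over the clones, induction changed few genes past the test. Of 19174 genes tested, 14 were higher (0.073%) and 0 lower (0%) in doxy-OSKM. At an unadjusted p under 0.05 there were 1739 higher and 1901 lower, and DESeq2 called 199 higher and 288 lower. These numbers depended on clone 3: without it, edgeR called 635 genes higher and 687 lower. Beside Pou5f1 and Sox2, the 14 included a set of genes of stratified epithelium, the layered tissue of skin and mouth. Slurp1, a secreted protein of keratinocytes, had 0, 0.0158 and 0.0158 CPM in MEF and 4.61, 7.81 and 0.179 CPM in doxy-OSKM (adjusted p = 0.00102). Krt13, a keratin of layered epithelium, had 0.0173, 0 and 0.0158 CPM in MEF and 1.26, 0.916 and 0.0128 CPM in doxy-OSKM (adjusted p = 0.0169). Krt16, a keratin of activated epithelium, had 0.052, 0 and 0 CPM in MEF and 1.02, 0.743 and 0.0256 CPM in doxy-OSKM (adjusted p = 0.0144). These 3 genes were near 0 in every MEF library and rose clear of them in clones 1 and 2, while clone 3 stayed at 0.179 CPM of Slurp1 and less of Krt13 and Krt16. Krt16 shares 51.9% of its sequence words with other genes, so its count is uncertain.

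Further genes among the 14 showed the same layout over libraries. Pkp1, a plakophilin of desmosomes, had 0.0346, 0 and 0 CPM in MEF and 2.27, 3.37 and 0.0385 CPM in doxy-OSKM (adjusted p = 0.000272). Krtdap, a protein of differentiating keratinocytes, had 0.0173, 0.0474 and 0.0158 CPM in MEF and 1.28, 0.76 and 0.0385 CPM in doxy-OSKM (adjusted p = 0.0169), and Nccrp1 had 0, 0 and 0 CPM in MEF and 0.623, 1.05 and 0.0385 CPM in doxy-OSKM (adjusted p = 0.0348). L1td1, an RNA-binding protein known from pluripotent stem cells, had 0.0346, 0 and 0 CPM in MEF and 2.14, 3.23 and 0.167 CPM in doxy-OSKM (adjusted p = 0.00102). In each of these genes, which were chosen by the test over the clones, clones 1 and 2 lay clear of every MEF library. Cfap206, a protein of cilia, had 0, 0 and 0 CPM in MEF and 1.82, 1.88 and 0.0641 CPM in doxy-OSKM, and A730046J19Rik had 0.121, 0.0158 and 0.0473 CPM in MEF and 2.33, 2.09 and 0.192 CPM in doxy-OSKM (adjusted p = 0.0112 and 0.0175). Cd5l, a secreted protein of macrophages, had 1.44, 3.18 and 0.978 CPM in MEF and 8.35, 27.9 and 3.03 CPM in doxy-OSKM, a log2 difference over the clones of 2.59 ± 0.30 (SE, adjusted p = 0.0112). The last pair were mt-Nd3, a subunit of respiratory complex I encoded by the mitochondrial genome, and Gm28438, a pseudogene on chromosome 1 with which it shares 98.1% of its sequence words, so their counts cannot be told apart. The mt-Nd3 levels were 114, 96.7 and 98.4 CPM in MEF and 275, 197 and 158 CPM in doxy-OSKM, higher in all 3 clones (log2 difference 1.01 ± 0.15, SE, adjusted p = 0.0421). The count of 14 became 5 without the doxy-OSKM library of clone 1.

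Taken clone by clone, the responses were of very different size. In clone 1, 1020 genes rose (5.32%) and 1144 fell (5.97%), and in clone 2, 644 rose (3.36%) and 726 fell (3.79%). In clone 3, 3 genes rose (0.0156%), namely Pou5f1, Sox2 and Myoc, and 0 fell (0%), with 193 higher and 328 lower at an unadjusted p under 0.05 and 5 and 1 called by DESeq2. Among 13638 genes with a mean log2 CPM of at least 1, the log2 difference of the pair without B12 had an SD of 0.352, 0.292 and 0.121 in clones 1, 2 and 3. Over those genes, 273, 164 and 7 differed by more than 2-fold. The differences of clones 1 and 2, which share no library, had a Pearson correlation across genes of 0.521, against 0.17 for clones 1 and 3 and 0.15 for clones 2 and 3. Genes are not independent of each other, and the values of a clone share 2 libraries.

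**Figure D2:**
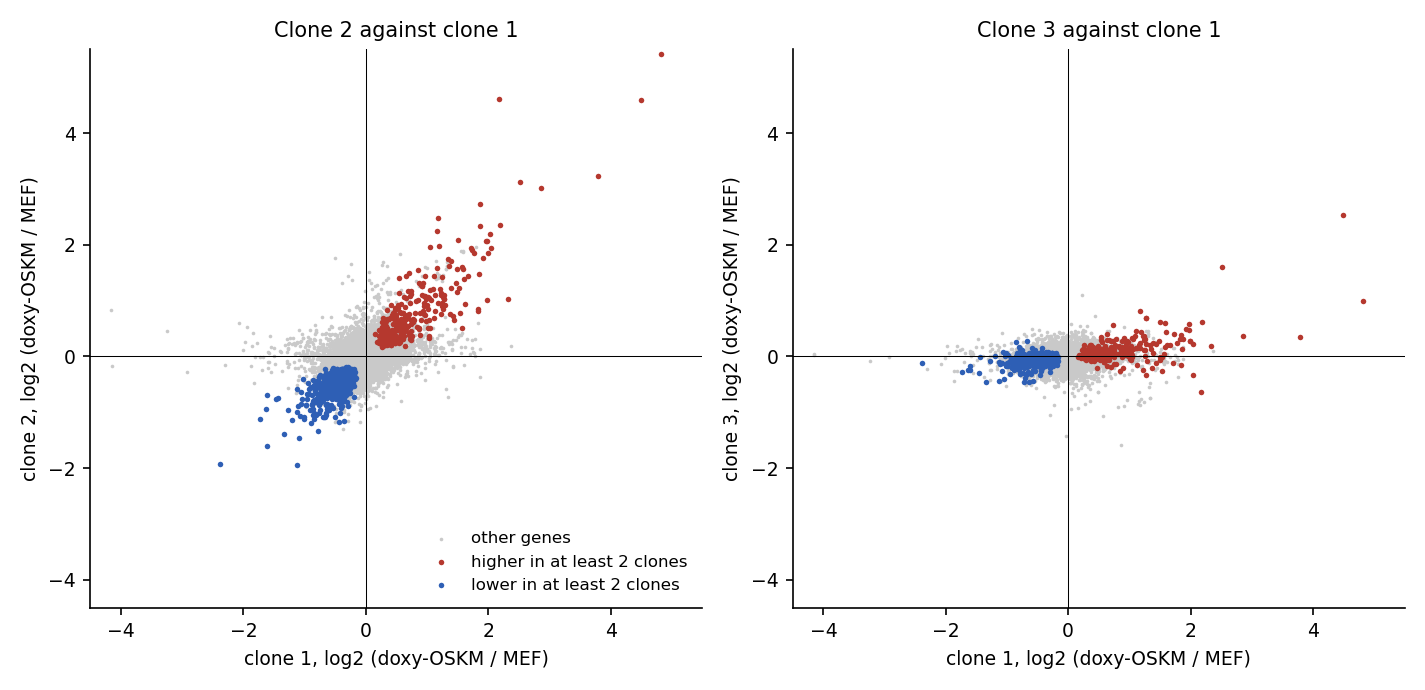
Log2 difference of doxy-OSKM minus MEF without B12, 1 point per gene with a mean log2 CPM of at least 1, for clone 2 (left) and clone 3 (right) against clone 1. Red and blue mark genes past the test in at least 2 clones; 7 of 13638 genes differ by more than 2-fold in clone 3.

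The genes described from here on are those past the test in the same direction in at least 2 clones, which in practice meant clones 1 and 2. They were 434 that rose (2.26%) and 515 that fell (2.69%), and the list counts below are to be read beside these shares. Among coding genes with under 50% shared words, 2.82% rose and 3.58% fell. Genes chosen by calls in clones 1 and 2 can lie clear of MEF in those clones through the choice itself. The share of all genes with such a layout was not counted. With library totals in place of TMM the same rule gave 723 that rose and 313 that fell, a setting that moved the median of all genes in clone 2 to 0.12. The 434 risers were 42.5% of those of clone 1 and 67.4% of those of clone 2, and the 515 that fell were 45% and 70.9%. Rises were the larger changes: the median difference of the pairs without B12 was 0.77 in clone 1 and 0.78 in clone 2, with 181 and 184 genes past 2-fold. Falls had medians of -0.44 and -0.49, with 30 and 38 genes past 2-fold. The risers held 405 protein-coding genes, 21 pseudogenes and 8 long non-coding RNAs, and the fallers 507, 5 and 3. Clone 3 did not take part in choosing most of them, and there 328 of the 434 risers (75.6%) were above 0 and 392 of the 515 fallers (76.1%) below 0, against 48.2% and 51.8% of all genes. The medians in clone 3 were 0.08 and -0.05. Leaving out the doxy-OSKM library of clone 1 gave 380 risers and 527 fallers, of which 284 and 328 were shared with the sets above. Clone 1 then had no doxy-OSKM library without B12. Its response in that fit came from its doxy-OSKM + B12 library, less a B12 effect estimated from the other clones. The check therefore did not measure induction without B12 in clone 1 directly, here or in the lists below. Without clone 3, whose libraries help to estimate the spread, the counts were 185 and 147. Keratins then had 10 risers, adventitial genes 8, collagens 2 fallers and proteases 5, while mesothelial genes kept a count of 6 risers and Wnt genes of 1 riser and 3 fallers. Beside those given with their lists, the calls lost without the doxy-OSKM library of clone 1 included those of Aldh1l2, Bmp7, Bmper, Cbr2, Cebpd, Cnmd, Cnn2, Ecm1, Eda2r, Egln3, Fgf1, Fgf10, Fhl2, Flt1, Fut4, Gadd45b, Gdnf, Hgf, Hoxd8, Icam1, Il1rl1, Klf5, Ltbp1, Mcm7, Mthfd1l, Mxi1, Nop56, Omd, P4ha2, Ptgfr, Ptgis, Runx1, Tnfaip2, Ttn, Tubb3 and Vcam1.

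Genes of keratins and stratified epithelium had the largest share of risers of the lists examined, the 4 factors aside. Of 42 listed, 27 were tested, and 16 rose and 0 fell in at least 2 clones, with the same 16 to 0 count when the doxy-OSKM library of clone 1 was left out. Members near 0 CPM in MEF, such as Krt13 and Krt16, passed the filter on low counts only through libraries with doxycycline. They could rise but hardly fall, so the filter fixed part of this count. The list was also chosen with earlier results of these data known. The median difference over the 27 was 1.44, 1.23 and -0.004 in clones 1, 2 and 3, against -0.018, 0.001 and -0.005 for all genes tested. Krt14 (ENSMUSG00000045545, chr11:100203162-100207548, GRCm38), the keratin of basal keratinocytes, had 0.658, 0.537 and 0.331 CPM in MEF and 7.96, 3.77 and 0.462 CPM in doxy-OSKM. Its log2 difference was 3.44 ± 0.20 and 2.99 ± 0.21 (SE) in clones 1 and 2 (adjusted p = 3.13e-05 and 7.6e-05). Krt8, a keratin of simple epithelium, had 0.312, 0.269 and 0.284 CPM in MEF and 2.39, 3.23 and 0.257 CPM in doxy-OSKM (adjusted p = 0.00203 and 0.000769 in clones 1 and 2), whereas Krt18, its usual partner, had 0.468, 0.364 and 0.331 CPM in MEF and 0.46, 0.415 and 0.244 CPM in doxy-OSKM and did not pass. In Krt14 and Krt8 the clone 3 library lay among or next to the MEF libraries.

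Krt19 had 4.4, 7.24 and 6.95 CPM in MEF and 17.5, 14.6 and 8.46 CPM in doxy-OSKM. Krt20 had 0.71, 1.25 and 0.962 CPM in MEF and 6.53, 6.53 and 1.42 CPM in doxy-OSKM, and both were above every MEF library in all 3 clones. Itgb4, the integrin of hemidesmosomes, had 2.06, 2.23 and 2.7 CPM in MEF and 15.2, 18.3 and 3.5 CPM in doxy-OSKM and rose by 2.97 ± 0.15 and 3.13 ± 0.15 (SE) in clones 1 and 2 (adjusted p = 1.69e-05 and 9.84e-06). Lamb3, a chain of the laminin that this integrin binds, had 1.54, 2.43 and 2.51 CPM in MEF and 5.18, 9.18 and 3.33 CPM in doxy-OSKM. Trp63, the master transcription factor of stratified epithelium, rose by only 0.99 and 1.24, from 1.65, 1.09 and 0.757 CPM in MEF to 3.14, 2.59 and 1.09 CPM in doxy-OSKM. Aqp3, a channel for water and glycerol in keratinocytes, had 0.104, 0 and 0.142 CPM in MEF and 2.57, 5.96 and 0.321 CPM in doxy-OSKM, and Lgals7, a galectin of stratified epithelium, had 0.381, 0.253 and 0.173 CPM in MEF and 1.72, 2.99 and 0.41 CPM in doxy-OSKM. Other risers of the list were Evpl, Krt13, Krt16, Perp, Serpinb5 and Sprr3. Krt5, the usual partner of Krt14, held at most 5 reads in each of the 6 libraries and was not tested.

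Junction genes changed less and only in part. Of 36 listed, 21 were tested, and 5 rose and 1 fell, with a median difference of 0.63, 0.51 and 0.06 in clones 1, 2 and 3. Cdh1, the E-cadherin that defines epithelial junctions, had 0.208, 0.111 and 0.0946 CPM in MEF and 0.564, 0.605 and 0.218 CPM in doxy-OSKM, and it passed the test in clone 2 (adjusted p = 0.0154) but not in clone 1 (adjusted p = 0.126). Epcam, the other defining marker, held at most 8 reads in any of the 6 libraries and was not tested. The risers were the desmosomal genes Pkp1, Dsc2 and Jup and the tight-junction genes Cldn1 and F11r. Jup (plakoglobin) had 48.8, 48.2 and 51.5 CPM in MEF and 62, 68.5 and 58.1 CPM in doxy-OSKM and Cldn1 (claudin-1) had 2.48, 1.88 and 1.5 CPM in MEF and 5.34, 4.41 and 1.95 CPM in doxy-OSKM. Pkp2, a plakophilin of heart and simple epithelium, differed by -0.68 and -0.80, opposite to Pkp1. In a fit without the doxy-OSKM library of clone 1, 2 junction genes rose, and Cldn1, F11r and Jup were no longer called.

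Mesothelium, the lining of body cavities, shares several of these keratins. Of its 16 listed markers, all tested, 6 rose and 0 fell, with the same counts without the doxy-OSKM library of clone 1. The 16 include Krt8, Krt18 and Krt19, described above. Msln (mesothelin) had 5.18, 5.41 and 8.78 CPM in MEF and 21.4, 20.9 and 6.96 CPM in doxy-OSKM and rose by 2.12 ± 0.11 and 1.78 ± 0.11 (SE). Upk3b, a uroplakin of mesothelium, had 8.76, 10.5 and 13.4 CPM in MEF and 22.7, 17.9 and 11.5 CPM in doxy-OSKM, and Anxa8, an annexin, had 19.3, 19.3 and 22 CPM in MEF and 61.1, 52.6 and 25.3 CPM in doxy-OSKM. In all 3 genes clones 1 and 2 exceeded every MEF library while the doxy-OSKM library of clone 3 lay near its own MEF library. Wt1, the defining transcription factor of mesothelium, had 3.36, 2.25 and 2.95 CPM in MEF and 3.66, 1.5 and 2.92 CPM in doxy-OSKM and did not pass in any clone. The summed level of the 16 markers was 76.1 to 90 CPM in MEF and 184, 148 and 88.7 CPM in doxy-OSKM. Whether mesothelial cells had a part in the epithelial genes was not tested.

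Several genes of adventitial fibroblasts, the CD34-positive cells around vessels and in fascia, rose. Of 28 listed genes, all tested, 12 rose and 1 fell in at least 2 clones. Leaving out the doxy-OSKM library of clone 1 gave the same counts, although Bmp7 was then not called. DESeq2 gave 10 risers and 1 faller. The summed level of the 28 was 8774, 8275 and 7591 CPM in MEF and 9545, 7989 and 7405 CPM in doxy-OSKM, higher in clone 1 and lower in clones 2 and 3. Pi16 (ENSMUSG00000024011, chr17:29317680-29330593), a peptidase inhibitor that marks these cells, had 10.3, 16.2 and 17.9 CPM in MEF and 143, 152 and 22.8 CPM in doxy-OSKM. That was a log2 difference of 3.76 ± 0.08 and 3.17 ± 0.08 (SE) in clones 1 and 2 (adjusted p = 9.45e-08 and 1.8e-07). Clone 3 had the highest MEF level and the smallest difference, 0.46. Myoc (myocilin, a secreted glycoprotein) had 0.381, 1.77 and 4.84 CPM in MEF and 11.6, 76.5 and 9.64 CPM in doxy-OSKM and passed the test in all 3 clones, with 4.85 ± 0.15 and 5.46 ± 0.12 (SE) in clones 1 and 2 and 1.03 in clone 3 (adjusted p = 0.0353).

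**Figure D3:**
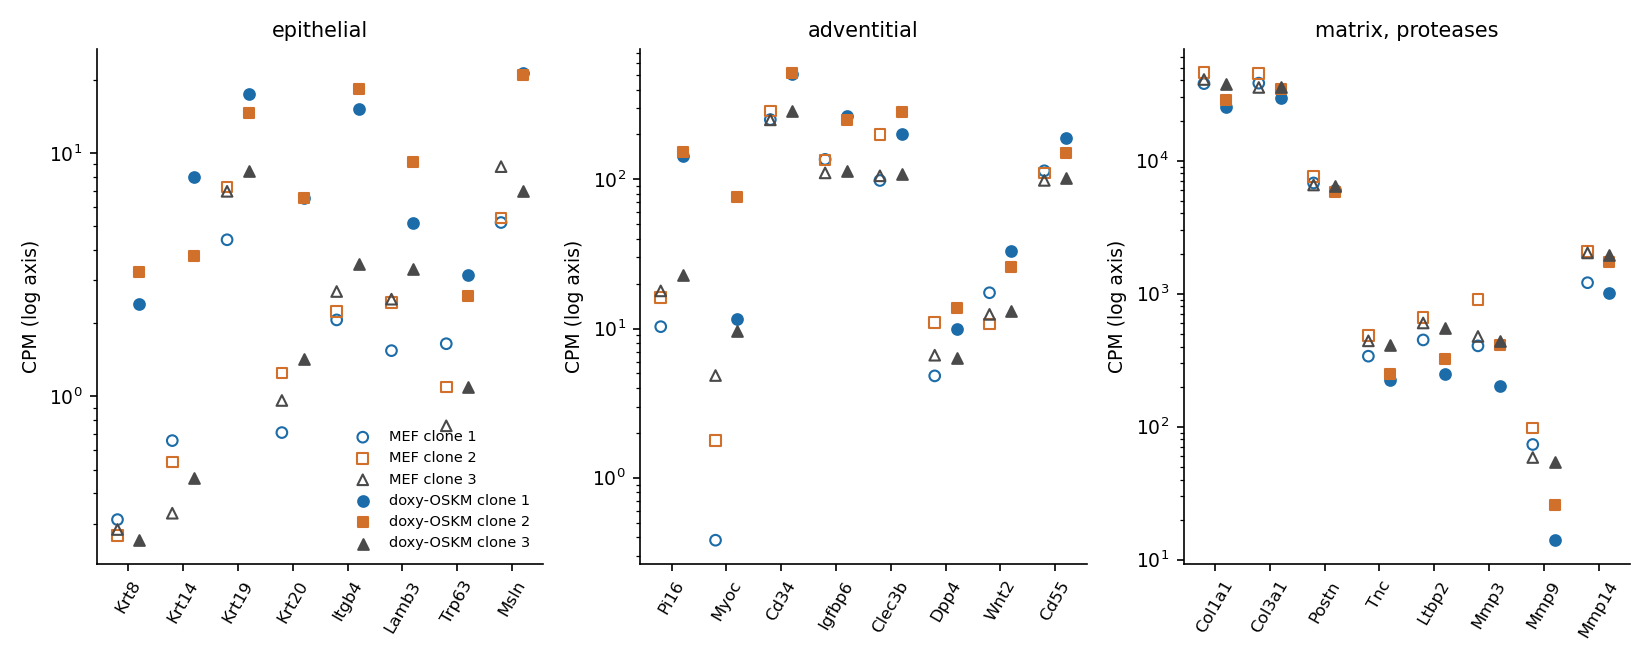
CPM on a log axis of 24 genes in the 6 libraries without B12, 1 point per library, open for MEF and filled for doxy-OSKM. Filled points of clones 1 and 2 lie above the open points of their own clone for the epithelial and adventitial genes and below them for the matrix and protease genes, while clone 3 pairs lie close together for most genes.

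Other adventitial genes had smaller differences. Cd34, a sialomucin of stem and stromal cells, had 251, 288 and 250.5 CPM in MEF and 511, 519 and 286 CPM in doxy-OSKM and Igfbp6, a binding protein for IGF2, had 136, 135 and 110.5 CPM in MEF and 264, 251 and 113 CPM in doxy-OSKM. Clec3b (tetranectin) had 98.2, 199.6 and 106 CPM in MEF and 199.8, 284 and 108 CPM in doxy-OSKM, and Dpp4, the peptidase CD26, had 4.81, 10.9 and 6.62 CPM in MEF and 9.89, 13.8 and 6.37 CPM in doxy-OSKM. Of these, Cd34 and Igfbp6 did not overlap between the MEF libraries and the doxy-OSKM libraries of clones 1 and 2, whereas Dpp4 overlapped and the doxy-OSKM value of Clec3b in clone 1 equalled the highest MEF value to 3 digits. Wnt2, a ligand of the Wnt pathway, and Cd55, an inhibitor of complement, rose in clones 1 and 2, Wnt2 by 0.93 and 1.27 and Cd55 by 0.64 and 0.54. Bmp7, Has1, Ly6c1 and Pcolce2 completed the risers. Dpt (dermatopontin), the gene of the list that fell, had 643, 903 and 608 CPM in MEF and 502, 564 and 586 CPM in doxy-OSKM.

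More collagen genes fell than rose. All 31 listed chains were tested, and 7 fell and 0 rose in at least 2 clones. The mean difference over the clones was below 0 for all 31. The list does not hold every collagen: Col2a1, which rose, is counted with the cartilage genes and not here. The median difference was -0.44, -0.32 and -0.03 in clones 1, 2 and 3. In the pairs with B12 the medians were -0.26, -0.09 and -0.08, a smaller difference in clones 1 and 2. Col1a1 (ENSMUSG00000001506, chr11:94936224-94953042), the main chain of type I collagen, had 37870, 45810 and 40670 CPM in MEF and 25430, 28770 and 37700 CPM in doxy-OSKM, a difference of -0.58 ± 0.12 and -0.53 ± 0.11 (SE, adjusted p = 0.0146 and 0.0233). In clones 1 and 2, Col1a2 differed by -0.47 and -0.40 and Col3a1 by -0.35 and -0.33. Col1a1, Col1a2 and Col3a1 were no longer called without the doxy-OSKM library of clone 1, where the count for the list was 5. Larger falls were seen in 2 other chains: Col23a1, a membrane collagen, had 39.8, 36.7 and 37.8 CPM in MEF and 22.5, 21.2 and 34.9 CPM in doxy-OSKM, and Col7a1, of anchoring fibrils, had 23.9, 33.8 and 31.7 CPM in MEF and 12.6, 22.7 and 27.9 CPM in doxy-OSKM.

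Fibroblast identity genes and matrix proteins went partly the same way. Of 23 fibroblast genes, 9 fell and 0 rose in at least 2 clones, among them Pdgfra and Pdgfrb, the PDGF receptors of fibroblasts. Lists overlap, and this one also holds Col1a1, Col1a2 and Col3a1, counted above as collagens. Pdgfrb had 274, 428 and 397 CPM in MEF and 218, 317 and 384 CPM in doxy-OSKM, and Postn (periostin) had 6784, 7595 and 6551 CPM in MEF and 6055, 5828 and 6492 CPM in doxy-OSKM. The count of fibroblast genes was 5 without the doxy-OSKM library of clone 1, where Pdgfra was not called, and 2 without clone 3. Of 65 matrix glycoproteins and proteoglycans, 9 fell and 6 rose, against 14 and 5 without that library. Fmod (fibromodulin) had 431, 572 and 550.5 CPM in MEF and 298, 379 and 540.4 CPM in doxy-OSKM and Spon1 (F-spondin) had 15.4, 11.6 and 10.2 CPM in MEF and 9.21, 7.38 and 9.95 CPM in doxy-OSKM. Tnc (tenascin C), Ltbp1, Podn and Smoc2 fell as well. Omd (osteomodulin) rose by 0.84 and 1.10 and Cilp by 1.17 and 1.59 in clones 1 and 2, and Ecm1, Has1, Ltbp4 and Spon2 rose as well. Of 36 mesenchymal transcription factors, 2 rose (Meox2 and Osr2) and 1 fell (Runx1), and Snai1, Zeb1 and Twist1, repressors of epithelial genes, did not pass in any clone. Snai1 had 43.2, 41 and 44.5 CPM in MEF and 41.4, 35.9 and 44.8 CPM in doxy-OSKM.

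Of 32 contractile genes tested, 5 fell and 0 rose: Cnn2, Fhl2, Itga11, Lmod1 and Mylk. The count of fallers was 3 with library totals and 2 without clone 3. Itga11, a collagen receptor, had 202, 262 and 273 CPM in MEF and 135, 164 and 254 CPM in doxy-OSKM, and Mylk, the kinase of myosin light chain, had 70.5, 59.5 and 57.1 CPM in MEF and 48.7, 40.3 and 55.9 CPM in doxy-OSKM. Acta2, the smooth-muscle actin of myofibroblasts, had 474, 268 and 316 CPM in MEF and 451, 220.2 and 319.6 CPM in doxy-OSKM and did not pass. The libraries of Acta2 differed more between clones than between states. Of 17 SRF and YAP targets 0 passed in at least 2 clones, with 3 lower and 0 higher at an unadjusted p under 0.05 in both clones 1 and 2, and 0 by DESeq2. Of 39 genes of protein folding and collagen modification in the endoplasmic reticulum, 6 fell (15.4%, against 2.69% of all genes) and 0 rose. They included Serpinh1, the collagen chaperone, with 3065, 3393 and 3170 CPM in MEF and 2606, 2780 and 3132 CPM in doxy-OSKM. The count was 4 without the doxy-OSKM library of clone 1, 2 with library totals and 1 without clone 3, where Serpinh1 was not called.

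Of 35 matrix proteases and inhibitors tested, 11 fell and 0 rose, with a median difference of -0.28, -0.36 and -0.04. Mmp3 (stromelysin-1) had 404, 898 and 476 CPM in MEF and 201, 411 and 439.8 CPM in doxy-OSKM, a difference of -1.05 ± 0.06 and -1.08 ± 0.06 (SE, adjusted p = 3.13e-05 and 1.78e-05). Mmp9 (gelatinase B) had 73.4, 97.8 and 58.6 CPM in MEF and 14, 25.8 and 54.2 CPM in doxy-OSKM and differed by -2.60 ± 0.25 and -1.72 ± 0.25 (SE, adjusted p = 0.000576 and 0.0038). Mmp9 showed no overlap between MEF and the doxy-OSKM libraries of clones 1 and 2, and Mmp3 overlapped only through clone 2. Mmp10, Mmp14, Mmp19, Mmp23, Adamts15, Adamts16, Plat, Plau and Serpine2 were the other members that fell. Mmp19 had 79.7, 80.8 and 74.7 CPM in MEF and 53.3, 54.8 and 74.6 CPM in doxy-OSKM, and Plau, the urokinase that activates plasminogen, had 70.1, 43.7 and 38 CPM in MEF and 49.8, 29.3 and 33.8 CPM in doxy-OSKM.

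Among the largest falls beside Mmp9, Acp5, a tartrate-resistant acid phosphatase, had 20.1, 33 and 27.8 CPM in MEF and 6.47, 17.3 and 23.4 CPM in doxy-OSKM. Atp6v0d2, a subunit of a proton pump, had 7.36, 7.81 and 6.26 CPM in MEF and 2.39, 2.54 and 5.26 CPM in doxy-OSKM, and Slc9b2, a sodium-proton antiporter, had 2.68, 2.89 and 3 CPM in MEF and 0.786, 1.31 and 2.46 CPM in doxy-OSKM. All 3 were lower in clones 1 and 2 than in every MEF library, with differences of -1.77 and -0.94 for Acp5, -1.88 and -1.47 for Atp6v0d2 and -1.78 and -1.27 for Slc9b2. The cultures held macrophage transcripts in both states. All 17 macrophage markers were detected in each of the 6 libraries, with a summed level of 1555 to 2814 CPM in MEF and 1589 to 2611 CPM in doxy-OSKM. Of them 2 fell, Adgre1 (F4/80) and Cx3cr1, and 1 rose, Cd5l, while 6 fell without the doxy-OSKM library of clone 1. Adgre1 had 125, 86.6 and 64.7 CPM in MEF and 91.1, 67.7 and 65.7 CPM in doxy-OSKM and Csf1r, the receptor of their growth factor, had 143, 92.4 and 76.2 CPM in MEF and 106, 71.9 and 75.1 CPM in doxy-OSKM. With B12 the summed level was higher in each clone and state, at 2322 to 3693 CPM in MEF + B12 and 2408 to 3025 CPM in doxy-OSKM + B12. The part of macrophages in the falls of Mmp9 and Acp5 and in the rise of Cd5l was not tested.

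Promoters are shown for 4 of these genes because they hold the letters TGANTCA, searched here with any base at N for the AP-1 site of Fos and Jun proteins. They are a keratinocyte pair that rose (Krt13 and Krtdap) and a protease pair that fell (Mmp3 and Mmp10). Each promoter is the 300-base RefSeq window on GRCm38.p6 around the start of the gene, 5′ to 3′ on the strand of the gene, with the match in capitals. The match reads TGAATCA in Krt13 and TGAGTCA in Krtdap, Mmp3 and Mmp10.
Krt13, chr11:100121517-100121816, minus strand: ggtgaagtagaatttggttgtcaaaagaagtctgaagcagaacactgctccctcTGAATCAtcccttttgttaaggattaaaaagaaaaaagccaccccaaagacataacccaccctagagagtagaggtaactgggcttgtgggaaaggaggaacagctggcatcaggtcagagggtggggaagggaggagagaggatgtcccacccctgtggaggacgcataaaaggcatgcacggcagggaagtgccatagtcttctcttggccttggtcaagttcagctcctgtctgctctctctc
Krtdap, chr7:30787655-30787954, plus strand: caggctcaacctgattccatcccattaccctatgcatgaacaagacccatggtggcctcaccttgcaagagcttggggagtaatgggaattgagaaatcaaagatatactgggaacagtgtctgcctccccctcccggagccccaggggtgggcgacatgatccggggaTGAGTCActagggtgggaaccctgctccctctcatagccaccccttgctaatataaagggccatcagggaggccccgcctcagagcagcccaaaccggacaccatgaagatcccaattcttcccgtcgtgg
Mmp3, chr9:7445572-7445871, plus strand: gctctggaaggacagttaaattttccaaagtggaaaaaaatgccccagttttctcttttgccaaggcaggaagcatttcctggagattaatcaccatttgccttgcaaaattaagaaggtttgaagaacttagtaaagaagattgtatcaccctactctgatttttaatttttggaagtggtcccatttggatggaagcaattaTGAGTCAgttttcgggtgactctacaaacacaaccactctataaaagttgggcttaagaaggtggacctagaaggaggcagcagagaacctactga
Mmp10, chr9:7502092-7502391, plus strand: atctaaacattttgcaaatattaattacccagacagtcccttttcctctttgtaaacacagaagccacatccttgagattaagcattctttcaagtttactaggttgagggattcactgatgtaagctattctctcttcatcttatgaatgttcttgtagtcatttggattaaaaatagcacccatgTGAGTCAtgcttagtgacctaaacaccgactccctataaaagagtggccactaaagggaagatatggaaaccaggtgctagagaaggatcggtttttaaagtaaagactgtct
Counted from the RefSeq start of each window, which lies 9 bases from the annotated start of the gene in Krtdap and 10 in Mmp10, the match began at -196 in Krt13, -81 in Krtdap, -46 in Mmp3 and -63 in Mmp10. It was searched on both strands in the 1 window nearest to the annotated start of each gene, which was found for 307 of the 434 risers, 385 of the 515 fallers and 12116 of the 19174 genes tested.

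Over those windows the AP-1 letters, with any base at N, stood in 8.47% of risers, 6.49% of fallers and 5.26% of all genes. The KLF letters GGGTGTGG stood in 7.17% of risers (22 of 307), 2.6% of fallers (10 of 385) and 3.73% of all. The octamer ATGCAAAT of Oct proteins stood in 2.61%, 2.34% and 1.35%, and the E-box CACGTG of Myc in 7.82%, 8.83% and 9.67%. TATAAA was held by 13%, 14.5% and 7.91%, and the TEAD site ACATTCCA by 0.651%, 0.519% and 0.809%. The median GC content was 59.3%, 62.7% and 60.3%. These shares are descriptions with no test, and a match is not evidence of binding.

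Genes of the AP-1 and immediate early factors, which respond within minutes to growth signals, gave few calls. Of 24 tested, 3 fell and 0 rose: Jun, Fosl2 and Klf6. Jun had 181, 188 and 186 CPM in MEF and 149, 144 and 178 CPM in doxy-OSKM and Fosl2 had 119.5, 135 and 128 CPM in MEF and 83.6, 101 and 128 CPM in doxy-OSKM. None of the 3 was called without the doxy-OSKM library of clone 1 (0 lower and 1 higher by edgeR, against 6 lower and 1 higher at an unadjusted p under 0.05 in both clones in the full fit and 4 lower by DESeq2). Of 15 feedback targets of ERK signalling, 4 fell and 0 rose, and 2 fell without that library. Dusp4, a phosphatase of ERK, had 9.68, 10.8 and 9.46 CPM in MEF and 4.89, 5.86 and 8.4 CPM in doxy-OSKM and differed by -0.97 ± 0.09 and -0.83 ± 0.09 (SE), and Phlda1 had 16.6, 14.3 and 16.4 CPM in MEF and 11.7, 9.8 and 14.6 CPM in doxy-OSKM.

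More growth factor genes fell than rose. Of 39 tested, 10 fell and 2 rose. Hgf, Nrg1, Gdnf, Fgf10, Pdgfd and Mdk, which are secreted ligands, and the receptors Fgfr2, Pdgfra and Pdgfrb were among the fallers. Pdgfra and Pdgfrb were also counted among the fibroblast genes. Hgf, the ligand of Met, had 21.7, 24.8 and 25.5 CPM in MEF and 15.9, 16 and 24.8 CPM in doxy-OSKM, and Mdk (midkine) had 144, 164 and 205 CPM in MEF and 107, 121 and 194 CPM in doxy-OSKM. The risers were Fgf1 with 0.658, 0.996 and 0.978 CPM in MEF and 1.85, 1.92 and 0.949 CPM in doxy-OSKM and Vegfa, the main ligand of endothelium, with 27.9, 20 and 21.3 CPM in MEF and 47.2, 30.9 and 19.5 CPM in doxy-OSKM. In the TGF-beta list 4 of 24 fell and 0 rose. Inhbb, a subunit of activin B, had 71.5, 71.3 and 57.7 CPM in MEF and 38.7, 39.5 and 52.1 CPM in doxy-OSKM, and Ltbp2, a latent TGF-beta binding protein relative, had 448, 664 and 601 CPM in MEF and 247, 322 and 549 CPM in doxy-OSKM. Both were lower in clones 1 and 2 than in every MEF library, and Inhba and Tgfb1 fell by less. Inhba differed by -0.55 and -0.56 and Tgfb1 by -0.32 and -0.41.

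Of 27 BMP genes 5 rose and 2 fell, with 6 higher and 5 lower at an unadjusted p under 0.05 in both clones and a median difference of -0.045, 0.213 and -0.044. Id1, a direct target of BMP signalling, had 10.2, 5.9 and 9.79 CPM in MEF and 20.1, 16 and 9.82 CPM in doxy-OSKM and rose by 0.98 ± 0.11 and 1.49 ± 0.11 (SE, adjusted p = 0.00107 and 0.000142). Of the ligands, Bmp6 rose by 1.51 and 0.58 and Bmp7 by 0.91 and 1.22 in clones 1 and 2. Of the antagonists, Chrdl1 rose by 1.42 and 0.79 and Sostdc1 by 1.98 and 1.41. Bmper, a secreted regulator of BMPs, was among those that fell. In the Wnt list 3 of 32 fell, the secreted antagonists Sfrp1 and Dkk3 and the agonist Rspo3, and Wnt2 rose. Sfrp1 had 1207, 1554 and 1436 CPM in MEF and 878, 983 and 1404 CPM in doxy-OSKM. In the IGF axis 2 of 16 fell (Igfbp2 and Igfbp4) and Igfbp6 rose, while 4 fell without the doxy-OSKM library of clone 1. Of 19 Hedgehog and Notch genes 0 passed in at least 2 clones by edgeR and 0 by DESeq2, with 1 higher at an unadjusted p under 0.05 in both.

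More genes of inflammation fell than rose. Of 38 cytokine, chemokine and NF-kB genes tested, 8 fell and 2 rose, with a median difference of -0.24, -0.31 and -0.06. Cxcl12, the stromal chemokine, had 663, 1058 and 892 CPM in MEF and 462, 709 and 831 CPM in doxy-OSKM, and Il33, an alarmin of stroma, had 76.3, 138 and 90.2 CPM in MEF and 54.9, 89.9 and 93.4 CPM in doxy-OSKM. Saa3, an acute-phase protein, had 63.8, 166 and 44.3 CPM in MEF and 37.7, 90.8 and 40.4 CPM in doxy-OSKM, and its MEF level differed more between clones than between the states of a clone. Cxcl5, Icam1, Il1rl1, Tnfaip2 and Vcam1 also fell, and Ccl8, a chemokine, had 18.9, 23.8 and 16.7 CPM in MEF and 45.3, 49.4 and 16.9 CPM in doxy-OSKM and rose together with Cxcl14. The count of fallers was 5 without the doxy-OSKM library of clone 1. Interferon-stimulated genes were called unevenly: 18 of 41 fell in clone 1 and 3 in clone 2, of which 3 passed in both (Iigp1, Psmb8 and Tap1), and 6 without that library. Of the 41, 8 had a response that differed between clones. The medians were -0.24, -0.03 and 0.03 in clones 1, 2 and 3.

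Ribosomal protein genes, which code for the translation machinery, were slightly higher. Of 81 tested, 59 rose in clone 1 and 11 in clone 2, and the same 11 passed in both, with 0 lower. The median difference was 0.33, 0.19 and 0.02. Rplp0, a protein of the ribosomal stalk, had 1122, 1210 and 1174 CPM in MEF and 1453, 1435 and 1185 CPM in doxy-OSKM. The count for both clones was 34 without the doxy-OSKM library of clone 1, 42 with library totals and 0 without clone 3 (by edgeR, against 51 at an unadjusted p under 0.05 in the full fit and 14 by DESeq2). Of 50 genes of ribosome biogenesis, a known target of Myc, 3 rose and 0 fell: Dkc1, Nop56 and Npm1. The Myc network list had 3 risers and 1 faller of 25, with Myc itself and Npm1 among the risers. Mitosis genes did not change past the test: 0 of 38 passed in at least 2 clones by edgeR, 0 by DESeq2 and 0 at an unadjusted p under 0.05 in both clones. Among 42 replication genes 1 rose (2.38%), Mcm7, with 58.6, 53.4 and 53.7 CPM in MEF and 71.5, 61.6 and 55.4 CPM in doxy-OSKM. Mcm7 was not called by DESeq2, without the doxy-OSKM library of clone 1 or without clone 3.

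The mitochondrial genome gave uneven values. The summed level of its 13 genes was 4979, 3228 and 5467 CPM in MEF and 11590, 9532 and 4008 CPM in doxy-OSKM for clones 1, 2 and 3. Clones 1 and 2 were higher and clone 3 lower in doxy-OSKM, and mt-Nd3 alone passed the test in at least 2 clones, a call lost with DESeq2 and without the doxy-OSKM library of clone 1. With B12 the sums were 5237, 7970 and 5779 CPM in MEF + B12 and 7257, 9734 and 10210 CPM in doxy-OSKM + B12, so the order of the clones was different there. Of 79 nuclear genes of the respiratory chain 0 passed by edgeR and 0 by DESeq2, with 0 higher and 2 lower at an unadjusted p under 0.05 in both clones. In glycolysis and hypoxia 3 of 37 rose (Egln3, Mxi1 and Vegfa) and 1 fell (P4ha2). In redox genes 5 of 40 rose, led by Aldh3a1, an aldehyde dehydrogenase of epithelium, with 0.935, 0.474 and 0.236 CPM in MEF and 7.24, 13.6 and 0.577 CPM in doxy-OSKM. Gsta4, a glutathione transferase, had 5.13, 7.52 and 8.7 CPM in MEF and 14.5, 16.8 and 8.63 CPM in doxy-OSKM, and Ftl1, a ferritin chain, was the 1 that fell. In redox genes 2 rose and 4 fell without the doxy-OSKM library of clone 1.

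Apart from L1td1, described above and not on the list, few pluripotency genes were called. Of 32 listed, 17 were tested, and 0 rose in at least 2 clones by edgeR and 0 by DESeq2, with 2 higher at an unadjusted p under 0.05 in both clones. Nanog had 0.364, 0.3 and 0.41 CPM in MEF and 0.282, 0.38 and 0.269 CPM in doxy-OSKM and did not pass in any clone. Esrrb and Zfp42 held at most 2 reads, Dppa5a at most 3 and Utf1 0 reads in each of the 6 libraries. The list had 3 fallers, Klf2, Klf5 and Fut4, and 1 faller by DESeq2, with library totals or without the doxy-OSKM library of clone 1, where Klf5 and Fut4 were not called. Klf2, a transcription factor used by naive stem cells and by stroma, had 50.9, 38 and 43.2 CPM in MEF and 28, 28.2 and 37.9 CPM in doxy-OSKM. Of 7 trophoblast and germ line genes tested 0 passed by edgeR, DESeq2 or an unadjusted p under 0.05 in both clones. Of 46 genes of DNA and histone methylation 1 rose, Kdm3a, by 0.36 and 0.24, a share of 2.17% against 2.26% of all genes. Its call was lost with DESeq2 and without clone 3. Of 44 genes of one-carbon and B12 metabolism 2 rose (4.55%), Cth and Mthfd1l, and 2 fell (4.55%), Aldh1l2 and Lrp2. Without clone 3 these counts were 0 and 0. Cth, which splits cystathionine to cysteine, had 2.6, 2.01 and 1.89 CPM in MEF and 4.38, 4.41 and 2.03 CPM in doxy-OSKM, and Lrp2 (megalin), an endocytic receptor, had 2.29, 2.37 and 3.17 CPM in MEF and 1.17, 0.881 and 1.86 CPM in doxy-OSKM.

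**Figure D4:**
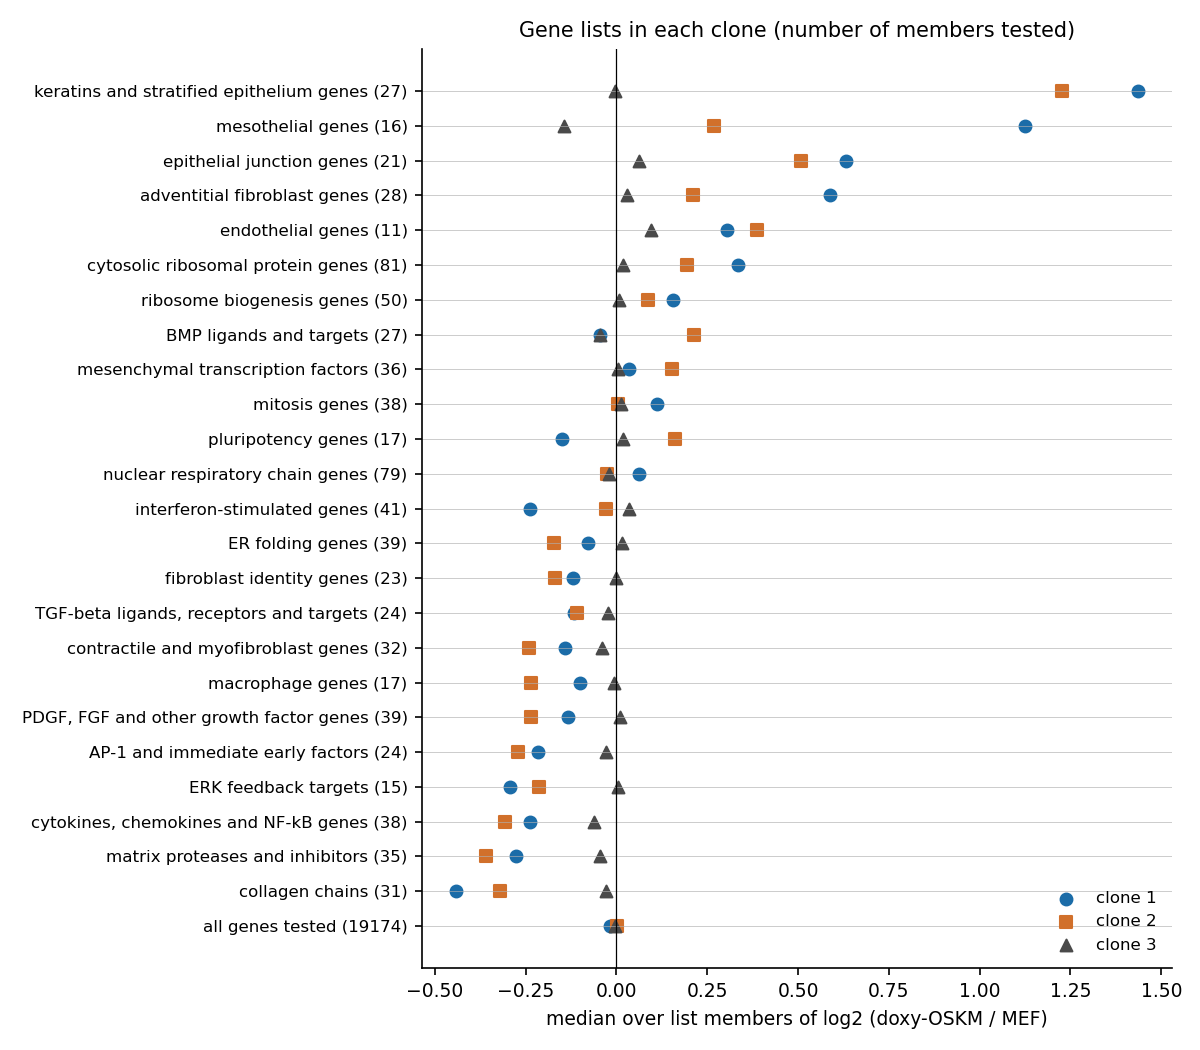
Median over the tested members of 24 of the 49 lists, and of all genes, of the log2 difference (doxy-OSKM minus MEF without B12), 1 point per clone, with the number of members in brackets. Keratins lie at 1.44 and 1.23 in clones 1 and 2 and collagens at -0.44 and -0.32, while clone 3 lies between -0.14 and 0.10 in all 25 rows. The lists not drawn include the mitochondrial genome, at -0.74 in clone 3, and the factors, at 1.32.

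Genes of endothelium, nerve and muscle were also examined, since an embryo culture can hold such cells. Of 11 endothelial genes tested, 3 rose and 1 fell. Tek, the receptor of angiopoietins, had 38.4, 42.3 and 35.5 CPM in MEF and 139, 118 and 46 CPM in doxy-OSKM and rose by 1.82 ± 0.07 and 1.58 ± 0.07 (SE, adjusted p = 4.69e-06 and 9.84e-06). Cdh5, the cadherin of endothelial junctions, had 1.02, 0.648 and 1.09 CPM in MEF and 3, 2.78 and 1.48 CPM in doxy-OSKM, and Flt1, a receptor of VEGF, had 87.7, 165 and 117 CPM in MEF and 65.8, 87.1 and 111 CPM in doxy-OSKM and fell. Pecam1, a defining marker, held 3 to 11 reads in each of the 6 libraries. The summed endothelial level was 175 to 252 CPM in MEF and 197 to 262 CPM in doxy-OSKM. Of 23 neural genes 1 rose, Stmn2 (a tubulin regulator) with 2.68, 2.25 and 4.23 CPM in MEF and 11.1, 10.4 and 4.91 CPM in doxy-OSKM, and 1 fell, Tubb3. Of 10 muscle genes 1 fell, Ttn, at under 0.4 CPM throughout, and the summed muscle level was 13.2 to 16.9 CPM in MEF and 13 to 16.4 CPM in doxy-OSKM. The part of these cell types in the results was not tested.

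The remaining genes among the 15 largest rises had varied roles. Aldh1a3, which makes retinoic acid, had 3.62, 2.32 and 3.75 CPM in MEF and 14.5, 8.44 and 4.57 CPM in doxy-OSKM, and Aox3, an aldehyde oxidase, had 2.79, 2.77 and 1.53 CPM in MEF and 12.8, 14.3 and 2.36 CPM in doxy-OSKM. Ceacam1, an adhesion molecule of epithelium, had 1.75, 1.5 and 1.09 CPM in MEF and 6.94, 6.36 and 1.51 CPM in doxy-OSKM, and Fgd5, a Cdc42 activator known from endothelium and blood stem cells, had 2.82, 3.48 and 3.31 CPM in MEF and 10.8, 11.9 and 4.64 CPM in doxy-OSKM. In all 4 genes the doxy-OSKM libraries of clones 1 and 2 exceeded every MEF library, as their choice by the size of the rise makes likely. In clone 3 Aldh1a3 and Fgd5 did so, and Aox3 and Ceacam1 did not. In clones 1 and 2, Ripor2 rose by 2.06 and 2.18 and Plekha6 by 1.81 and 2.45. Grin3a, an NMDA receptor subunit, rose by 1.79 and 2.73, and Miat, a long non-coding RNA, had 3.34, 0.522 and 1.21 CPM in MEF and 15.2, 13.4 and 0.769 CPM in doxy-OSKM with the highest MEF value in clone 1.

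Among the 15 largest falls, Dio3, the deiodinase that inactivates thyroid hormone, had 3.12, 3.07 and 3.34 CPM in MEF and 1.41, 0.778 and 2.45 CPM in doxy-OSKM. Angpt4, an angiopoietin that binds Tek, had 12.8, 23.6 and 17.2 CPM in MEF and 6.02, 11.2 and 15.9 CPM in doxy-OSKM, the opposite direction to its receptor. Flt4, the VEGF receptor of lymphatic vessels, had 4.81, 5.83 and 6.72 CPM in MEF and 2.25, 2.11 and 5.63 CPM in doxy-OSKM, and Slc5a7, the choline transporter of nerve endings, had 5.66, 10.8 and 8.15 CPM in MEF and 2.45, 4.87 and 8.24 CPM in doxy-OSKM. Dio3 differed by -1.02 and -2.03 in clones 1 and 2, and by -0.50 in clone 3. Kcne4, an accessory subunit of potassium channels, had 23.6, 40.9 and 31.9 CPM in MEF and 9.76, 20.9 and 30.2 CPM in doxy-OSKM. Tmem132e, Ptprn, B3gat1 and Brinp2 are known from the nervous system. Tmem132e differed by -1.39 and -1.34 in clones 1 and 2, Ptprn by -1.36 and -0.95, B3gat1 by -1.08 and -1.01 and Brinp2 by -0.93 and -1.21. Dio3 was no longer called without the doxy-OSKM library of clone 1.

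Other lists gave few calls. Of 20 adipocyte genes 5 fell (Acsl1, Angptl2, Apoe, Cebpd and Lpl) and Scd1 rose. Lpl, the lipase of lipoproteins, had 458, 658 and 336 CPM in MEF and 366, 464 and 354 CPM in doxy-OSKM. Of 17 cartilage and bone genes 3 rose (Cnmd, Col2a1 and Omd, or 1 gene without the doxy-OSKM library of clone 1) and Spp1 (osteopontin) fell, with 770.2, 1048 and 746 CPM in MEF and 499.9, 634 and 736 CPM in doxy-OSKM. Col2a1, the collagen of cartilage, had 5.21, 3.49 and 2.62 CPM in MEF and 11.8, 19.6 and 4.6 CPM in doxy-OSKM. Of 31 cell cycle inhibitors and p53 targets 2 fell (Eda2r and Gadd45b) and Perp rose, but 0 fell by DESeq2, with library totals, without the doxy-OSKM library of clone 1 or without clone 3 (6 lower at an unadjusted p under 0.05 in both clones), while Cdkn1a, the inhibitor p21, had 172, 153 and 158 CPM in MEF and 153, 146 and 151 CPM in doxy-OSKM and did not pass. Of 23 prostaglandin genes 3 rose (Akr1c14, Cbr2 and Ptgs1) and 2 fell (Ptgfr and Ptgis). Of 38 Hox genes 2 fell (5.26%), Hoxb9 and Hoxd8, and of 37 sterol genes 1 rose (2.7%), Scd1. Of 34 ATF4 targets 1 rose (2.94%, Cth) and 1 fell (2.94%, Slc38a2), and of 20 mitochondrial stress genes 1 fell (5%, Aldh1l2). Of 12 genes taken from the study, Krt14 alone passed in at least 2 clones. DESeq2 called 1 of them, and 2 were higher at an unadjusted p under 0.05 in both clones. The study stained KRT14 as protein in mouse tissues, another measure and setting, so the call of Krt14 does not test that finding. The study also reports higher Setd2 mRNA in induced fibroblasts at the time sampled here. Setd2 was among the methylation genes tested here and did not pass in at least 2 clones. A gene that did not pass was not shown to be unchanged.

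Whether the response differed between clones was tested directly. An F test of the clone-by-state terms called 413 genes (2.15%), of which 348 belonged to the 434 risers and 515 fallers. In 398 of the 413 the fitted difference was smallest in clone 3, and in 1 gene clones 1 and 2 had both passed in opposite directions. Pi16 and Myoc had the smallest adjusted p among the named genes (2.73e-06 and 2.73e-06). Pou5f1 and Cd5l did not pass (adjusted p = 0.352 and 0.145). Without clone 3 the test called 0 genes in edgeR, and without clones 1 and 2 it called 724 and 195.

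The pairs with B12 were separate libraries of the same clones, and they had been part of the fits that chose the genes. Over the 434 risers their median difference was 0.72, 0.85 and 0.07 in clones 1, 2 and 3, beside 0.77, 0.78 and 0.08 without B12. Over the 515 fallers it was -0.43, -0.40 and -0.07, beside -0.44, -0.49 and -0.05. The pairs of Krt14 differed by 3.56, 3.40 and 0.57 with B12 and by 3.54, 2.74 and 0.44 without. Those of Pi16 differed by 3.85, 3.25 and 0.70 with B12 and by 3.79, 3.23 and 0.35 without. The pairs of Mmp9 differed by -2.81, -1.49 and -0.13 with B12 and by -2.39, -1.92 and -0.11 without. In each of these genes, which were chosen by calls in clones 1 and 2, clone 3 had the smallest difference in size with and without B12.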

How the data were processed

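RNA of 12 samples was measured, of which 6 are compared here. The authors prepared reverse-stranded poly(A) libraries, aligned read pairs with STAR (2.5.2 in the submitters' processing notes) to mm10 (GRCm38), counted them per gene with featureCounts, and summed technical replicates. The deposited values are raw counts for 55573 genes. Of the gene IDs, 55480 matched GENCODE M21 on the same build and 93 did not. No pair of libraries held identical counts (0 of 66).

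From these counts, edgeR 4.0.16 in R 4.3.3 (quasi-likelihood F test, TMM, filterByExpr by group, Benjamini-Hochberg threshold of 0.05) was fitted to all 12 libraries with clone and group as terms, and again with a state effect per clone and B12 within state. The 6 and 4 residual degrees of freedom gave a biological coefficient of variation of 8.04% and 6.63%. CPM used TMM-scaled totals, and log2 CPM a prior count of 2. Differences for lists are of the pairs without B12, unless given with B12. Per-gene differences, with or without an SE, are from the fit, which also draws on the libraries with B12. The exceptions are those said to be of pairs. Coding genes with under 50% of their 31-base words in other genes' transcripts formed 1 alternative. DESeq2 1.42.0, other scalings, filters and left-out libraries were the others. Scripts were tested on simulated data.

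The clone served as the replicate block, since every group holds 1 culture of the same embryo. Deviations from group means correlated within clones by 0.547, 0.27 and 0.33 and between clones by -0.378 to 0.17. Separate embryos are biological replicates, but within a clone the spread may be technical. Counting precision does not cover amplification error.

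Genes named are the 14 past the test over all clones, up to 15 rises and 15 falls of largest median clone difference (past the test in at least 2 clones, mean log2 CPM of at least 1, under 50% shared words, no predicted names), members of 49 lists that passed in at least 2 clones, and defining markers. Snai1, Zeb1, Twist1, Acta2, Wt1, Csf1r and Cdkn1a were added as well-known markers after their values were seen. The members and lists were chosen with earlier results of these data known. A few genes that the rule names are not reported here.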

Additional observations from a re-analysis of the deposited data

Results flagged for a closer look

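The response to induction differed between the 3 clones in 413 of 19174 genes, by edgeR's F test of the clone-by-state terms. Of the 42 genes named by their change, 24 passed that test. Among genes that rose, those past it, each with the adjusted p of the difference, were Myoc (2.73e-06), Pi16 (2.73e-06), Itgb4 (0.000269), Plekha6 (0.000637), Stmn2 (0.000729), Aox3 (0.00206), Aldh1a3 (0.00212), Grin3a (0.00212), Fgd5 (0.00212), Ripor2 (0.00763), Lamb3 (0.0096) and Sox2 (0.0156). Among genes that fell they were Mmp3 (0.000625), Angpt4 (0.00897), Mmp9 (0.0112), Flt4 (0.0125), Slc9b2 (0.0144), Dio3 (0.0145), Tmem132e (0.0178), Kcne4 (0.018), Acp5 (0.0267), Brinp2 (0.0278), Ptprn (0.0322) and Slc5a7 (0.0337). In each of these 24 genes the fitted difference of clone 3 was nearer to 0 than those of clones 1 and 2. Their choice by calls in at least 2 clones, in practice clones 1 and 2, makes this likely. The clones also differed in Pou5f1 and Sox2 level in doxy-OSKM and in the year of their library titles, and the part of either was not tested.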

How the results depend on the processing

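The counts depended on the settings, and the cause was not tested unless named. Over all clones the 14 higher and 0 lower genes became 199 and 288 with DESeq2, 332 and 349 with no filter, 2 higher with at least 10 counts in every library, 1 lower in coding genes with little shared sequence, 0 higher with no replicate block (a fit without the pairing by clone), and 4 higher in only the 6 libraries without B12. Leaving out libraries gave 1 to 635 higher and 0 to 687 lower. In clone 3, DESeq2 gave 5 higher and 1 lower, no filter 11 and 13, and at least 10 counts 0 higher. The genes higher in all 3 clones (3) became 5, 11 and 0 in these settings, and 1 was lower with no filter. With library totals, clone 1 had 738 lower, clone 2 had 1117 higher and 467 lower, and at least 2 clones had 723 higher and 313 lower. With no filter 1751 were lower in clone 1 and 1257 differed between clones, and 667 differed in coding genes. With 1 B12 term for both states, clone 2 had 1053 higher and 1235 lower, and at least 2 clones had 663 and 852. Over left-out libraries the ranges were 345 to 535 higher and 300 to 706 lower in clone 1, 311 to 1010 higher and 262 to 1227 lower in clone 2, 2 to 3 higher and 0 to 0 lower in clone 3, 2 to 380 higher and 0 to 527 lower in at least 2 clones, and 0 to 838 differing between clones. Leaving out clones 1 or 2 leaves clone 3 as 1 of 2 clones. Of 6581 values for single genes, 6137 stayed on their side of the threshold, 439 fell short of it and 5 newly passed. A change of direction was counted only where a value passed in either setting, and there were 0. Values that passed in neither setting, such as most of those of clone 3, are among the 6137 whatever their direction. The list medians moved by under the spread between clones in 276 of 294 values. With library totals the others were -0.038 (TGF-beta), 0.069 (Hedgehog and Notch), 0.109 (DNA replication), 0.094 (Myc network), 0.033 (glycolysis), 0.066 (respiratory chain), 0.091 (prostaglandin), 0.05 (antioxidant), 0.044 (methylation), 0.084 (one-carbon) and 0.06 (genes of the study). Leaving out a clone gave 0.04 to 0.058 (Hedgehog and Notch), 0.077 to 0.467 (endothelial), -0.064 to 0.082 (skeletal muscle), 0.046 to 0.082 (Myc network) and -0.009 to 0.026 (prostaglandin).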
